A study of Mus musculus with 7 samples.

Results

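Rogdi, Tmcc2, Btn1a1, Ermap and Mir451a are 5 genes of maturing mouse red cell precursors, out of 55367 gene symbols measured in the series. They were picked by name because they rose strongly during differentiation in these libraries or are related to Btn1a1, a butyrophilin. Their rise from 0 h therefore chose them and is described here without a test. All 7 libraries came from G1E-ER4 cells, mouse erythroid progenitors that lack functional GATA1 and carry a fusion of GATA1 with the hormone-binding part of the estrogen receptor. Estradiol switches the fusion protein on and starts erythroid maturation. The DTPA group was 3 libraries taken after 24 h of 100 nM estradiol with 50 µM DTPA, a chelator that binds zinc strongly, present from the start. The control group was 3 libraries taken after 24 h of 100 nM estradiol alone. A single library of cells at 0 h, with neither agent, had no replicate. The growth medium of all groups held erythropoietin and Kit ligand, and the labels call the replicates biological without saying how the cultures were separated. The line is a single engineered line, so the values describe this cell model.

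Butyrophilins are membrane proteins with immunoglobulin-like outer domains, most of which also carry a SPRY domain inside the cell. Btn1a1 is best known from the lactating mammary gland, where the protein binds xanthine oxidoreductase and takes part in the secretion of milk fat. Ermap, the erythroid membrane-associated protein, has the same domain plan and in humans carries the Scianna blood group antigens. Rogdi is, in human cells, a subunit of the complex of DMXL and WDR7 proteins that assembles the proton pump V-ATPase. Tmcc2 encodes a transmembrane coiled-coil protein of the endoplasmic reticulum. Mir451a encodes miR-451a, an abundant microRNA of red cells that is cut by the slicer activity of Ago2 and not by Dicer. GATA1 activates the locus that it shares with Mir144.

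The mature microRNAs and the hairpin of Mir451a show what the 2 neighbouring rows of the deposited tables stand for. They are RefSeq sequences on GRCm38.p6, written 5′ to 3′ with the seed (bases 2 to 8) in capitals for the mature forms, and with the mature miR-451a in capitals for the hairpin at chr11:78073170-78073241 on the plus strand.
mmu-miR-451a: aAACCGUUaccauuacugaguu
mmu-miR-144-3p: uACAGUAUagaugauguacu
mmu-miR-144-5p: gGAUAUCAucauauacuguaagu
Mir451a hairpin: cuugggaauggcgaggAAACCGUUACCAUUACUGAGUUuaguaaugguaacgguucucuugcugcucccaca
None of the 3 seeds was shared with another of the 1738 mature mouse sequences in the RefSeq table. The mature miR-451a covers bases 17 to 38 of the 72-base hairpin. In the fold predicted by RNAfold it runs up the first arm and through all 4 bases of the loop, and 17 of its 22 bases are paired. The row Mir451b is the same 72 bases read on the minus strand. Poly(A)-selected libraries do not capture mature microRNAs, so the row Mir451a counts reads of longer transcripts that cover the hairpin.

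Levels are in TPM, reads per transcript length scaled to a common total in each library. The 7 libraries held an estimated 17.59 to 21.19 M reads in genes, with 10904 to 11268 genes per library at 1 TPM or more. All 7 erythroid markers reached 1 TPM in at least 1 library. Of 8 markers of mammary epithelium, 7 were listed at 0 in every library and the other, Krt8, reached 0.22 TPM in 1 library. The casein genes Csn1s1, Csn2 and Csn3 and the milk protein genes Wap and Lalba were among the 7. Of 5 neuronal markers, Map2, Snap25 and Rbfox3 were listed at 0 throughout, while the tubulin gene Tubb3 had 124 to 145 TPM under DTPA, 30.95 to 36.2 TPM in the controls and 3.8 TPM at 0 h. The lymphoid markers Cd3e, Ptprc and Il7r and the myeloid markers Mpo, Lyz2 and Itgam were also listed at 0. Of the other myeloid markers, Cd68 had 1.05 to 2.33 TPM under DTPA, 2.72 to 2.88 TPM in the controls and 7.13 TPM at 0 h, and Csf1r and Elane stayed below 1 TPM. Among the lymphoid markers, Cd79a had 2.56 to 2.82 TPM under DTPA and 0.23 to 1.06 TPM in the controls. Summed megakaryocyte markers were 18.45 to 22.5 TPM under DTPA, 3.65 to 4.5 TPM in the controls and 15.3 TPM at 0 h, with Vwf at 0. Summed progenitor and mast cell markers were 74.5 to 83.6 TPM under DTPA, 38.5 to 41.4 TPM in the controls and 466 TPM at 0 h. Mcpt8 was at 0 throughout, and the mast cell genes Cpa3 and Fcer1a were at 0 in every library at 24 h. The sums at 24 h are therefore those of Kit and Gata2 alone. Kit averaged 32.1 TPM under DTPA and 7.41 TPM in the controls, and Gata2 47.7 and 32.8 TPM. The part of these marker shifts in the results below was not tested.

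Rogdi, Btn1a1 and Tmcc2 were low at 0 h and abundant at 24 h, with DTPA or without it. Rogdi had 1626, 1936 and 1880 TPM under DTPA, 1332, 1368 and 1304 TPM in the controls and 8.81 TPM at 0 h. The mean was 206-fold the 0 h level under DTPA and 152-fold in the controls. Btn1a1 had 233, 233 and 252 TPM under DTPA, 437, 436 and 466 TPM in the controls and 2.83 TPM at 0 h, a mean 84.5-fold the 0 h level under DTPA and 158-fold in the controls. Tmcc2 had 794, 886 and 870 TPM under DTPA, 789, 796 and 716 TPM in the controls and 12.3 TPM at 0 h. Its mean was 69.0-fold the 0 h level under DTPA and 62.3-fold in the controls. Every library at 24 h lay far above the 0 h library for these 3 genes. An estimated 122 reads of Rogdi, 69 of Btn1a1 and 414 of Tmcc2 stood behind the 0 h values, so none of these folds rests on a handful of reads.

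On the scale log2(TPM + 1), where a difference understates the change of low genes, the control mean exceeded the 0 h value by 7.09 for Rogdi, 6.87 for Btn1a1 and 5.85 for Tmcc2. Among 11906 genes with at least 1 TPM at 0 h or on average in the controls, these were the 4th, 5th and 10th largest rises. The DTPA mean exceeded the 0 h value by 7.53 for Rogdi, 6.00 for Tmcc2 and 5.97 for Btn1a1, the 7th, 17th and 19th largest rises among 12016 genes. A difference of at least 1 upward was reached by 16.5% of genes under DTPA and by 15.8% in the controls, and downward by 28.6% under DTPA and by 25.3% in the controls. The rule used this contrast, so nothing is read from the members' place in it. In the controls Rogdi had the 69th highest level of all symbols and Tmcc2 the 154th.

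**Figure D1:**
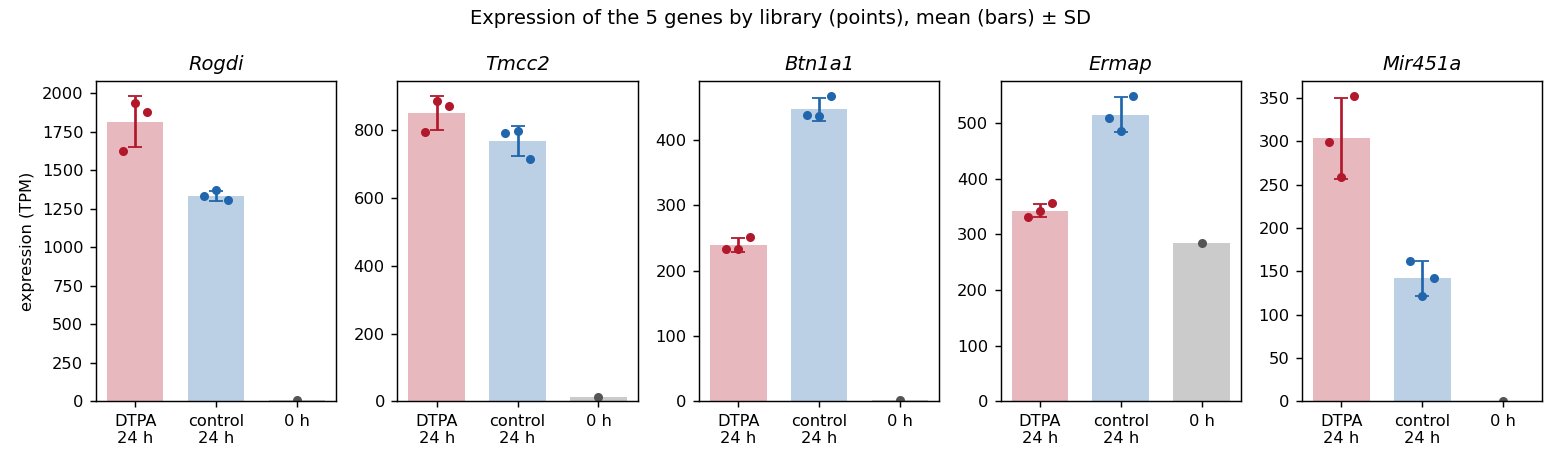
Expression in TPM of the 5 genes, 1 panel each with its own axis from 0; points are libraries, bars are means, error bars are the SD of 3 libraries, and the single 0 h library has none. Rogdi, Tmcc2, Btn1a1 and Mir451a are near 0 at 0 h, while Ermap already stands at 284 TPM there; Btn1a1 and Ermap are lower under DTPA than in the controls, and Rogdi and Mir451a are higher.

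Ermap was already expressed before differentiation. It had 331, 341 and 355 TPM under DTPA, 509, 485 and 548 TPM in the controls and 284 TPM at 0 h. Its control mean was 1.81-fold the 0 h value and ranked 2252nd among the rises, and its DTPA mean was 1.20-fold the 0 h value. At 0 h Ermap stood far above its relative Btn1a1, with log2(TPM + 1) of Btn1a1 minus Ermap at -6.22. At 24 h the same difference was -0.52 ± 0.0278 under DTPA and -0.20 ± 0.0417 in the controls (SD, n = 3 each). Both genes thus stood at similar levels per length after a day of estradiol, with Ermap higher in all 6 libraries.

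The question put to the DTPA libraries was whether DTPA changes these levels at 24 h. No library had zinc added back, so the part of zinc itself was not tested. The controls of this comparison are the ones whose rise chose the genes, so the comparison is not fully independent of that choice. Of the 5 genes, 2 were higher under DTPA, 2 were lower and 1 did not pass (limma on log2(TPM + 1), Benjamini-Hochberg adjusted p under 0.05 over 11147 genes). Over all genes tested, 21.7% were higher and 36.4% lower, so calls in both directions were common. All 3 DTPA libraries lay above all controls in 24.7% of genes and below them in 40.3%. The median log2 difference of all genes was -0.09, and 37.3% of calls were upward. Median-of-ratios scaling moved that median to 0.0079 and the upward share to 49.1%, and quantile normalization to 0.01 and 50.6%.

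Both butyrophilin relatives were lower under DTPA. Btn1a1 averaged 239 ± 10.8 TPM under DTPA and 447 ± 17.2 TPM in the controls (SD, n = 3 each), a log2 difference of -0.90 ± 0.0474 (SE, limma adjusted p = 3.70e-06). Ermap averaged 343 ± 12.2 TPM under DTPA and 514 ± 31.5 TPM in the controls, a log2 difference of -0.58 ± 0.0531 (adjusted p = 5.93e-05). In both genes every DTPA library lay below every control. The levels under DTPA were 0.536 and 0.666 times the control levels for Btn1a1 and Ermap. Within a library, Btn1a1 minus Ermap was -0.51, -0.55 and -0.50 under DTPA and -0.22, -0.15 and -0.23 in the controls on the log2 scale. Btn1a1 was thus lower relative to Ermap in all 3 DTPA libraries, by 0.31, with p = 0.1 in an exact two-sided permutation test, the smallest p that 3 against 3 libraries allow.

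Rogdi was higher under DTPA, at 1814 ± 165 TPM against 1335 ± 32.1 TPM in the controls (SD, n = 3 each). The log2 difference was 0.44 ± 0.0673 (SE, limma adjusted p = 9.51e-04), and all DTPA libraries lay above all controls. This call depended on the scaling, since quantile normalization gave 0.14 (adjusted p = 0.182). An antisense gene shares 240 bases with the 2343 exon bases of Rogdi and reached at most 0.37 TPM.

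Tmcc2 did not pass, with 850 ± 49.0 TPM under DTPA and 767 ± 44.5 TPM in the controls (SD, n = 3 each), a log2 difference of 0.15 ± 0.0598 (SE, limma adjusted p = 0.0664). The libraries of both groups overlapped, because the lowest DTPA library at 794 TPM fell below the highest control at 796 TPM. The difference passed, with the same sign, under median-of-ratios scaling (0.26, adjusted p = 0.0124), quantile normalization (0.15, adjusted p = 0.038) and without the globin genes (0.18, adjusted p = 0.0407). It also passed without DTPA replicate 1, at 0.20 (adjusted p = 0.0213).

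**Figure D2:**
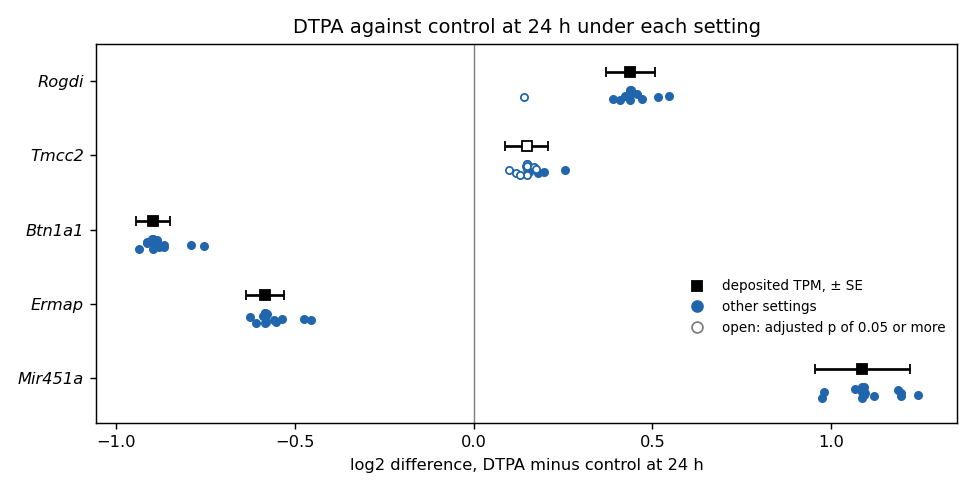
Log2 difference of DTPA minus control at 24 h for the 5 genes; black squares with bars are the values from the deposited TPM ± SE, blue points are the same fit under each other setting, and open symbols did not pass an adjusted p of 0.05. Btn1a1 and Ermap stay below 0 and Rogdi, Tmcc2 and Mir451a above it in every setting drawn, while Rogdi has 1 open point (0.14, quantile normalization) and Tmcc2 is open in most.

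Mir451a was the member that rose most under DTPA. It had 299, 259 and 352 TPM under DTPA and 162, 121 and 143 TPM in the controls, and was listed at 0 at 0 h. Those values came from an estimated 150, 127 and 182 reads under DTPA, 71, 51 and 60 reads in the controls and 0 reads at 0 h. The groups did not overlap, and the log2 difference of DTPA minus control was 1.09 ± 0.133 (SE, limma adjusted p = 2.82e-04), 2.13 times the control level. With a limit of 3 reads for the 0 h library, or 7.05 TPM, the mean was at least 43.0-fold higher than at 0 h under DTPA and at least 20.1-fold higher in the controls. This limit covers counting error only. A read that overlaps so short a row only in part counts in full, so its TPM is not set beside those of the longer genes.

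Mir144, which lies 100 bases before Mir451a on the same strand, was also higher under DTPA. It had 257, 160 and 272 TPM under DTPA, 69.8, 70.1 and 85.5 TPM in the controls and 2.56 TPM at 0 h, the last from 1 estimated read. Its log2 difference of DTPA minus control was 1.57 ± 0.193 (SE, limma adjusted p = 2.99e-04), also without overlap. Within a library, Mir451a minus Mir144 on the log2 scale averaged 0.43 ± 0.240 under DTPA and 0.91 ± 0.260 in the controls (SD, n = 3 each). The library values were 0.22, 0.69 and 0.37 under DTPA and 1.21, 0.78 and 0.73 in the controls, without overlap, although the highest DTPA and the lowest control value lay close together. The difference of -0.48 reached p = 0.1 in the exact two-sided permutation test, again the smallest possible p. The row Mir451b was at 0 in all 7 libraries although it covers the same bases as Mir451a, so reads there were assigned to Mir451a alone. Of 2197 microRNA rows, 1958 were at 0 in every library, and Mir451a ranked 6th in mean level both under DTPA and in the controls. Among the 91 microRNA rows tested, 16 were higher and 3 lower under DTPA, beside 21.7% and 36.4% of all genes.

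**Figure D3:**
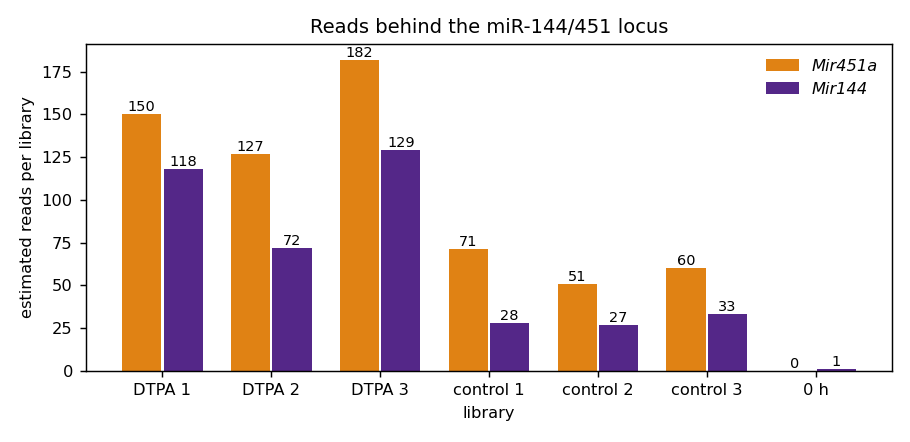
Estimated reads on the rows Mir451a and Mir144 in each library, from TPM and exon length. Mir451a has 127 to 182 reads in the DTPA libraries, 51 to 71 in the controls and 0 at 0 h, and Mir144 has 72 to 129, 27 to 33 and 1.

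Relatives and partners of the members were taken from lists chosen with earlier results of these data known, and described by counts. Of 23 butyrophilin and butyrophilin-like genes with a row, 18 were listed at 0 in every library and 3 were tested, namely Btn1a1, Ermap and Btnl7-ps. Btnl7-ps, annotated as a pseudogene, averaged 57.5 ± 7.57 TPM under DTPA and 52.1 ± 4.08 TPM in the controls (SD, n = 3 each), with 2.02 TPM at 0 h, and its DTPA minus control log2 difference of 0.14 did not pass (limma adjusted p = 0.275). Btn2a2, the chromosomal neighbour of Btn1a1, stayed at 0.06 to 0.29 TPM under DTPA and 0.07 to 0.14 TPM in the controls. Btnl10 was at 0.03 to 0.06 TPM under DTPA and 0.44 to 0.71 TPM in the controls, too low to be tested.

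Of the genes that work with Btn1a1 on milk fat droplets or handle lipid, Xdh, the xanthine oxidoreductase gene, was listed at 0 throughout. Plin2, encoding the lipid droplet coat protein perilipin 2, averaged 1178 ± 28.2 TPM under DTPA, 1678 ± 19.9 TPM in the controls (SD, n = 3 each) and 148 TPM at 0 h, and was lower under DTPA by a log2 difference of -0.51 (limma adjusted p = 1.69e-05). The adiponectin receptor gene Adipor1 was higher, at 814 ± 18.4 TPM under DTPA and 581 ± 2.91 TPM in the controls, and so was Mfge8, a secreted milk fat globule protein, at 8.53 ± 1.22 and 4.503 ± 0.508 TPM. Among these 3 tested genes, 2 thus rose and 1 fell, where 21.7% of all genes were higher and 36.4% lower. So few genes do not describe the partners of Btn1a1 as a group, and Adipor1 was listed for its part in lipid handling. Cd36, also listed, had 4.29 TPM at 0 h. It was at 0.08 to 0.12 TPM under DTPA and 0 to 0.05 TPM in the controls, too low at 24 h to be tested.

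Tmcc2 was the abundant member of its family. Tmcc1 averaged 4.68 ± 0.234 TPM under DTPA and 4.53 ± 0.266 TPM in the controls (SD, n = 3 each), with 1.99 TPM at 0 h, and did not pass. Tmcc3 rose, at 4.35 ± 0.115 TPM under DTPA against 2.69 ± 0.430 TPM in the controls (limma adjusted p = 0.00595), and had 17.8 TPM at 0 h. Between the controls and 0 h, Tmcc1 was thus higher and Tmcc3 lower in the controls, while Tmcc2 stood far above both at 24 h.

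Of 11 tested genes of the DMXL and WDR7 complex and the peripheral sector of V-ATPase, 2 rose, 5 fell and 4 did not pass under DTPA, near the 21.7% higher and 36.4% lower of all genes, and the falls of Atp6v1g1 and Atp6v1b2 did not pass under quantile normalization. Their median log2 difference was -0.06, close to the -0.09 of all genes. Wdr7 averaged 71.0 ± 2.69 TPM under DTPA and 71.5 ± 4.56 TPM in the controls, and Dmxl1 23.5 ± 1.07 and 24.2 ± 1.63 TPM (SD, n = 3 each), with neither passing. Dmxl2 did not exceed 0.02 TPM. Subunit genes of the pump that fell included Atp6v1c1, at 119 ± 3.49 TPM under DTPA and 155 ± 1.85 TPM in the controls, and Atp6v1a, at 120 ± 4.20 and 153 ± 7.69 TPM. The one with the largest rise was the weakly expressed Atp6v1g2, at 3.87 ± 0.115 TPM under DTPA and 2.43 ± 0.524 TPM in the controls. Between 0 h and the controls, 8 of the 11 were at least 2-fold higher on the log2(TPM + 1) scale, against 15.8% of all genes, and none was 2-fold lower.

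Of 13 other tested genes of the Mir451a locus and of microRNA processing, 2 rose, 5 fell and 6 did not pass under DTPA. Over all genes tested, 21.7% were higher and 36.4% lower, so these counts lay near those shares. Mir144 and Prkra, a Dicer partner, rose. The nuclear microRNA processor genes Drosha and Dgcr8 fell, with log2 differences of DTPA minus control of -0.35 and -0.45, and Dicer1 fell by 0.40 on that scale. Ran, the GTPase that drives nuclear export, fell most, at 112 ± 4.04 TPM under DTPA and 273 ± 9.86 TPM in the controls (SD, n = 3 each, limma adjusted p = 5.19e-07). Ago2, the slicer that matures miR-451a, had 170 ± 9.42 TPM under DTPA and 154 ± 8.12 TPM in the controls, a difference that did not pass (adjusted p = 0.0564), and 119 TPM at 0 h.

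Of the 6 listed targets of miR-451, 2 rose, 3 fell and 1 did not pass under DTPA, where 21.7% of all genes were higher and 36.4% lower. Ywhaz, an adaptor protein gene that miR-451 represses in mouse erythroid cells, averaged 119 ± 2.22 TPM under DTPA and 124 ± 2.11 TPM in the controls (SD, n = 3 each) and did not pass, with 334 TPM at 0 h. Cab39, Rab14 and Mif fell, with log2 differences of DTPA minus control of -0.27, -0.46 and -0.77, where Mif is known as a target from human cells; the call of Cab39 was lost under quantile normalization (-0.09). Gata2, a target known from zebrafish, rose to 47.7 ± 4.58 TPM under DTPA, against 32.8 ± 1.64 TPM in the controls, and Myc to 30.6 ± 1.43 TPM, against 14.9 ± 0.164 TPM. From 0 h to the controls, 4 of the 6 were at least 2-fold lower, where 25.3% of all genes were.

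Red cell genes that GATA1 is known to activate served as a wider frame. Among the 20 that were tested, 13 fell, 3 rose and 4 did not pass under DTPA, where 36.4% of all genes were lower and 21.7% higher, and the median log2 difference was -0.36 beside -0.09 for all genes. The row Gata1 had 1177, 1329 and 1410 TPM under DTPA, 3261, 3075 and 3156 TPM in the controls and 2969 TPM at 0 h. Its log2 difference of DTPA minus control was -1.28 (limma adjusted p = 3.81e-06). The fusion also encodes Gata1, and this row does not tell it apart from the cells' own gene. The part of Gata1 in the members' levels was not tested. Between 0 h and the controls, 14 of the 20 listed genes were at least 2-fold higher in the controls on the log2(TPM + 1) scale. Another 2 were at least 2-fold lower, beside 15.8% higher and 25.3% lower of all genes. These 2 were Hemgn, with 136 TPM at 0 h and 32.5 TPM in the controls, and Tspo2, with 39.7 and 10.6 TPM. Epb42 had 7.37 TPM at 0 h and 8.04 TPM in the controls. Between DTPA and control, Btn1a1 moved in the same direction as the anion exchanger gene Slc4a1 (log2 difference of DTPA minus control -3.38) and the hemogen gene Hemgn (-3.65). The membrane protein gene Epb42 (-1.07) and Trim10 (-0.98) also moved that way. Only the DTPA contrast is compared here, since Hemgn and Epb42 did not rise 2-fold from 0 h to the controls as Btn1a1 did. Rogdi moved in the same direction as the heme synthesis gene Alas2 (0.39) and the beta-globin row Hbb-bt (2.12), while the alpha-globin row Hba-a2 fell (-1.13); the globin rows belong to near-identical copies and are uncertain one by one. Among 12 other tested blood group genes, 6 rose and 6 fell. Rhd was at 1.16 ± 0.297 TPM under DTPA and 20.003 ± 1.92 TPM in the controls, Gypc at 264 ± 6.87 and 588 ± 6.38 TPM, and Abcb6 at 1.99 ± 0.115 and 3.62 ± 0.405 TPM (SD, n = 3 each). Higher under DTPA were Kel, at 27.4 ± 1.99 TPM against 12.3 ± 0.787 TPM in the controls, Aqp3, at 9.84 ± 1.57 against 2.46 ± 0.293 TPM, and Cd44, at 8.48 ± 0.700 against 3.29 ± 0.737 TPM. In such bulk libraries, fewer cells of a type and less RNA per cell cannot be told apart.

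**Figure D4:**
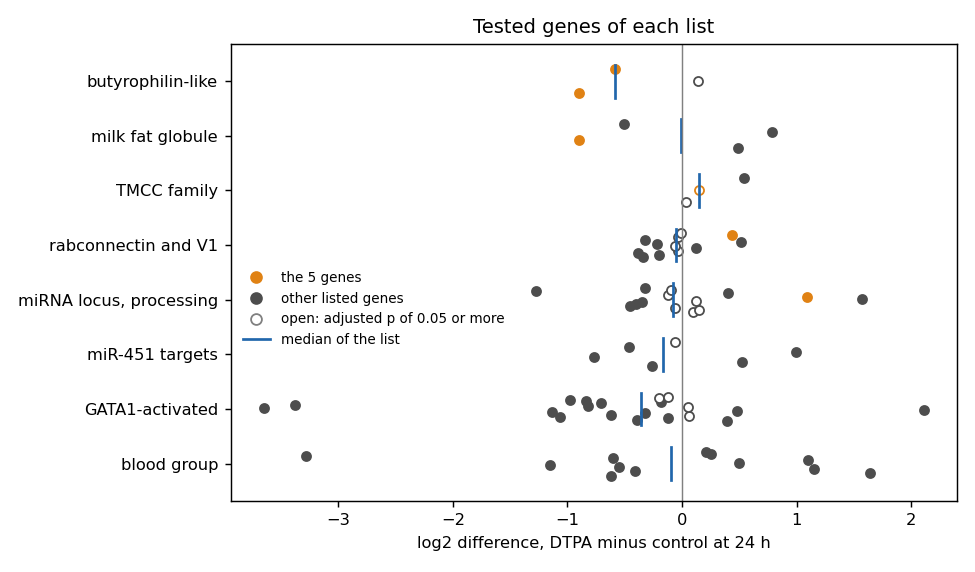
Log2 difference of DTPA minus control at 24 h for each tested gene of the 8 lists; orange points are the 5 members, grey points the other genes, open points did not pass an adjusted p of 0.05, and blue lines are list medians. The genes that GATA1 activates reach from -3.65 for Hemgn to 2.12 for Hbb-bt, with 13 of 20 lower, while Btn1a1 and Ermap are the filled points of the butyrophilin list.

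Likeness of profile was measured over the 7 libraries as the root mean square difference of log2(TPM + 1), each gene centred on its own mean, over the 8871 genes that averaged 5 TPM or more. It is a description, since the 0 h library carries most of it. Btn1a1 was closest to Slc38a5, an amino acid transporter gene, at 0.120. Slc38a5 averaged 232 ± 4.84 TPM under DTPA, 495 ± 7.79 TPM in the controls (SD, n = 3 each) and 3.47 TPM at 0 h. The next genes, Gm26616 and Tmem184a, were farther away at 0.378 and 0.451. Rogdi was closest to Csf2rb, a cytokine receptor subunit gene, at 0.261, then to the beta-tubulin gene Tubb1 at 0.296 and to Mir451a at 0.380. Mir451a in turn was closest to Csf2rb at 0.192, to the aquaporin gene Aqp8 at 0.290 and to Rogdi. The 0 h value of Mir451a entered as 0 TPM from 0 reads, where the limit of 3 reads is 7.05 TPM. All distances to Mir451a are therefore uncertain. Csf2rb averaged 1865 ± 115 TPM under DTPA, 1053 ± 68.6 TPM in the controls and 5.26 TPM at 0 h.

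Tmcc2 was closest to Evi5l at 0.120, to Alas2 at 0.124 and to Gm26616 at 0.158. Alas2, which encodes the first enzyme of heme synthesis in red cells, averaged 2538 ± 41.4 TPM under DTPA, 1937 ± 61.6 TPM in the controls (SD, n = 3 each) and 34.2 TPM at 0 h. Ermap was closest to Tex2, Blzf1 and Nrd1, at 0.0365, 0.0426 and 0.0517, all of them expressed at 0 h and lower under DTPA than in the controls. Exons of Gm26616 share 640 bases with Ppp1r15b and those of Alas2 share 311 bases with Apex2, on the other strand in each case.

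**Figure D5:**
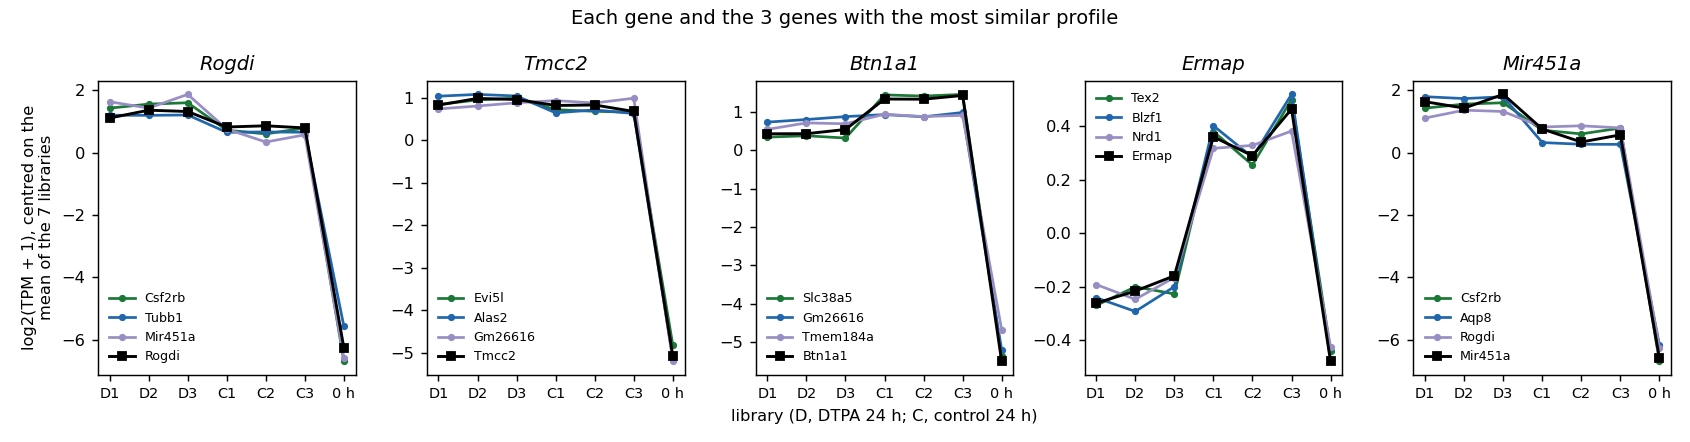
Log2(TPM + 1) in each library, centred on the gene's mean of 7 libraries, for each of the 5 genes (black) and the 3 genes with the smallest root mean square difference to it; lines join the libraries of one gene and D, C and 0 h mark DTPA, control and 0 h. The panels of Rogdi, Tmcc2, Btn1a1 and Mir451a are dominated by the low 0 h value, while that of Ermap, on a narrower axis, shows the DTPA libraries between the controls and the 0 h library.

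The 4 protein-coding members lie on different chromosomes, all on the minus strand of GRCm38: Rogdi on chromosome 16 from 5008730 to 5013553, Tmcc2 on chromosome 1 from 132356315 to 132391281, Btn1a1 on chromosome 13 from 23456992 to 23465901 and Ermap on chromosome 4 from 119175457 to 119190011. The RefSeq table of promoter windows, each 250 bases before to 50 bases after an annotated start, held windows for Rogdi, Tmcc2 and Ermap. They were searched on both strands for the GATA words (AGATAA or AGATAG, and TGATAA or TGATAG) and for the CACCC-type word CCNCNCCC, whose matches do not overlap the GATA words here. Matches to either are in capitals in the windows of Ermap, Rogdi and the innermost of 3 starts of Tmcc2, shown because GATA1 drives the differentiation of this line.
Ermap, chr4:119189946-119190245, minus strand: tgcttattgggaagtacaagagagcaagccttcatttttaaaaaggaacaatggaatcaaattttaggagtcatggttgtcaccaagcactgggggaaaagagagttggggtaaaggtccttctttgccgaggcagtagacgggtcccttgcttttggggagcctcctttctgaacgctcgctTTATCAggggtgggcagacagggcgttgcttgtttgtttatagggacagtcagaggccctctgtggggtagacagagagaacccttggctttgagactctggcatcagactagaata
Tmcc2, chr1:132367899-132368198, minus strand: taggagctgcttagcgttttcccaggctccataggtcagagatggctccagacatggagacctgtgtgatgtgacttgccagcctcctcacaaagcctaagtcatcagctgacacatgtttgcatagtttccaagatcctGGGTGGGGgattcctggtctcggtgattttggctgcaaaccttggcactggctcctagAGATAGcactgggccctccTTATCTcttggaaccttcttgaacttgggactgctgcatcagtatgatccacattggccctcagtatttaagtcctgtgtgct
Rogdi, chr16:5013504-5013803, minus strand: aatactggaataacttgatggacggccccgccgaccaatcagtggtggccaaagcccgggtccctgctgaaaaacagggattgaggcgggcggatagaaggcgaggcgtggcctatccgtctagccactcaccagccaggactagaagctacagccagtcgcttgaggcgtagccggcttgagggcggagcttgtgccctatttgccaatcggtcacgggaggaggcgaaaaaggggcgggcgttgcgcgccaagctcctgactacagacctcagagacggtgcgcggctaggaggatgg
Ermap held 1 GATA word, 67 bases before the start, and the innermost window of Tmcc2 held 2, at 52 and 33 bases before it, with 1 CCNCNCCC match. The windows of Rogdi and of the middle start of Tmcc2 held neither word. The outermost window of Tmcc2 held 5 CCNCNCCC matches and no GATA word. The window of Tmcc2 shown is thus its only one with a GATA word. Among 32851 promoter windows of the same length, 29.8% held a GATA word and 49.5% held CCNCNCCC, so such matches are common. GC content was 61.3% in the window of Rogdi and 48.7% in that of Ermap, with a median of 52.7% over all windows. For Tmcc2 it was 51% in the innermost and middle windows and 74% in the outermost. Which start of Tmcc2 was used is not read from gene totals.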

How the data were processed

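Messenger RNA of 7 libraries was measured as TPM, 1 value per gene symbol, made by the authors and deposited as 1 table per library, each summing to 1000000. Libraries were made with a stranded poly(A) kit, per the labels' protocols. Trimmomatic 0.33, FastQC, HISAT2 2.1.0, featureCounts, edgeR and build mm10 are named, without roles, per the submitters' processing notes. Not given in the sources used here are the annotation, the gene lengths and the strand setting. Values of 114 symbols on several rows were summed. Reads were estimated from TPM and GENCODE M21 exon lengths on GRCm38, the assembly of mm10: low values came out whole, within 0.1 read, in 98.97% to 99.35% of cases per library.

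DTPA was compared with control in the 6 libraries of 24 h by limma 3.58.1 (R 4.3.3), two-sided, without a replicate block, fitting log2(TPM + 1) and a variance trend. Genes entered where 3 or more libraries reached 1 TPM. P-values rest on the spread between libraries of the same group, moderated over genes by limma. How the cultures behind those libraries were separated is not given. Groups at 24 h against 0 h are described without a test. Named genes are the 5 members, the 3 genes most like each, and up to 6 called genes of each list with the largest change, with others named for their role after their values were seen. The lists covered relatives, partners, microRNA processing and targets, genes that GATA1 activates and blood group genes, and Btnl12 matched no row. Members and lists were chosen with earlier results of these data known. RNAfold 2.7.2 folded the hairpins. Alternatives were other pseudocounts, filters and scalings, a fit without the trend or over all 7 libraries, the replicate block, and leaving out each library at 24 h.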

Additional observations from a re-analysis of the deposited data

How the results depend on the processing

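The 3 calls of Btn1a1, Ermap and Mir451a held under every alternative run, with log2 differences of DTPA minus control from -0.93 to -0.75, -0.62 to -0.45 and 0.97 to 1.24. Quantile normalization ended the call of Rogdi (0.14), and the cause was not tested; leaving out 1 library gave Rogdi 0.39 to 0.52. Tmcc2 passed without the globin genes (0.18), with median-of-ratios scaling (0.26) and after quantile normalization (0.15), and leaving out 1 library gave 0.10 to 0.20, past the threshold only without DTPA replicate 1. The TMCC family held 1 call, but 0 with a filter of 5 TPM, 2 under each of those 3 settings, and 1 to 2 with 1 library left out. Gm26616, not called, turned to 0.0495 under quantile normalization. By Pearson correlation the 3 most similar genes shared 0 with those reported for Rogdi, Tmcc2, Btn1a1 and Mir451a, and 1 for Ermap, so these likenesses rest on the measure.

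Log2 differences from 0 h moved with pseudocount and scaling, and every one stayed above 0. With pseudocount 0.1, DTPA minus 0 h was 7.67 for Rogdi, 6.10 for Tmcc2 and 6.35 for Btn1a1, and control minus 0 h was 7.23, 5.95 and 7.25 for the same genes. With pseudocount 5 they were 7.04, 5.62 and 4.96 for DTPA and 6.60, 5.48 and 5.85 for control, and 1973 genes were at least 2-fold lower in the controls. Median-of-ratios scaling gave 7.77, 6.25 and 6.18 for DTPA and 7.23, 5.99 and 6.97 for control, and for Ermap 0.53 for DTPA and 1.01 for control. Quantile normalization gave 7.73, 6.31 and 6.30 for DTPA with 0.35 for Ermap, and 7.58, 6.15 and 7.04 for control. Without the globin genes DTPA minus 0 h was 6.09 for Tmcc2, 6.06 for Btn1a1 and 0.36 for Ermap, and control minus 0 h was 7.15 for Rogdi and 6.93 for Btn1a1.

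Samples with the same replicate number did not deviate together (correlations of -0.0103, 0.0243 and -0.00964). With a replicate block, 2274 genes were higher and 3888 lower under DTPA, and no member's call changed. Over all alternatives together, the values of single genes other than the members kept call and direction in 692 cases, lost the call in 5, gained it in 1 and changed sign in 1. The single 0 h library has no error, and Mir451a rests on at most 182 reads in a library.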

Other observations

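Up to 2 annotated genes on each side of a member were read as values. Glyr1, whose near end lies 356 bases from Rogdi, had 69.7 ± 1.92 TPM under DTPA, 74.3 ± 3.52 TPM in the controls (SD, n = 3 each) and 86.7 TPM at 0 h. Ubn1, 36504 bases from Rogdi on the same side, was lower under DTPA, at 122 ± 3.54 against 163 ± 3.66 TPM in the controls (limma adjusted p = 7.64e-05), and had 46.5 TPM at 0 h. Dstyk, a kinase gene beside Tmcc2, had 72.7 ± 2.09 TPM under DTPA, 71.98 ± 4.62 TPM in the controls and 12.8 TPM at 0 h. Zfp691, 1262 bases from Ermap, had 18.8 ± 1.67 TPM under DTPA, 23.01 ± 0.961 TPM in the controls and 13.5 TPM at 0 h, and was lower under DTPA (adjusted p = 0.0127). AU022252, on the other side, had 8.31 ± 0.461 TPM under DTPA and 9 ± 0.445 TPM in the controls, and did not pass. Svbp, a tubulin-modifying cofactor gene 5295 bases from Ermap, was lower under DTPA, at 130 ± 10.8 against 294 ± 7.32 TPM in the controls (adjusted p = 3.36e-06), with 236 TPM at 0 h. Gm46404, beside Btn1a1, had 1.73 ± 0.289 TPM under DTPA and 1.46 ± 0.335 TPM in the controls, and did not pass. The other neighbours with values were low: Smim22 beside Rogdi, Nuak2, F730311O21Rik and 6030442K20Rik beside Tmcc2, C230035I16Rik, Btn2a2 and n-TStga1 beside Btn1a1 and Gm12868 beside Ermap did not exceed 1.92 TPM in a library.

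The genes around Mir144 and Mir451a moved in different directions. Eral1, on the other strand 135 bases beyond Mir451a, had 29.9 ± 1.48 TPM under DTPA, 46.1 ± 3.08 TPM in the controls (SD, n = 3 each) and 87.1 TPM at 0 h, and was lower under DTPA (limma adjusted p = 1.31e-04). Fam222b, 21419 bases beyond it on the same strand, had 233 ± 17.4 TPM under DTPA, 93.7 ± 3.12 TPM in the controls and 17.2 TPM at 0 h, and was higher under DTPA (adjusted p = 1.94e-06). Flot2, 12736 bases before Mir451a on that strand, had 93.3 ± 7.90 TPM under DTPA and 82.1 ± 3.05 TPM in the controls, and did not pass (adjusted p = 0.0504).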
